A study of Mus musculus with 3 samples.

Results

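Microglia are the resident macrophages of the brain, and here they were the 1618 cells that a rule on 11 genes picked out of 21666 cells from 3 mouse rhabdoid tumours. A cell was counted as microglia when at most 15% of its UMIs (unique molecular identifiers, each standing for 1 captured mRNA molecule) came from mitochondrial genes, when it held UMIs of at least 3 of the 6 myeloid genes C1qa, C1qb, C1qc, Tyrobp, Fcer1g and Ctss, and when it held UMIs of at least 2 of the 5 microglia genes P2ry12, Tmem119, Cx3cr1, Fcrls and Siglech. The 3 tumours formed 1 group of the subtype named R26-SHH, each labelled with the genotype Rosa 26-CreERT2::Smarcb1flox/flox. In that model, tamoxifen given during embryonic development activates a Cre recombinase expressed from the Rosa26 locus, which is active in most cell types, so that Smarcb1, a subunit of the SWI/SNF chromatin remodelling complex, may be deleted in cells of any kind, microglia included. Mouse ages and the day of tamoxifen are not given in the labels, and all 3 tumours carried the same alleles, so no control group exists. Each tumour was dissociated with enzymes in warm medium and run as 1 droplet library of single-cell 3′ RNA-seq.

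Microglia descend from yolk sac macrophages and depend on the receptor Csf1r and its ligands Csf1 and Il34. They survey brain tissue, take up dead cells and debris through phagocytic receptors, digest them in lysosomes, and release cytokines, chemokines and complement. Their lineage is set by the transcription factor PU.1, encoded by Spi1, together with Irf8 and, in microglia but not in most other macrophages, Sall1. In brain tumours they are found mixed with macrophages that come from the blood or from the borders of the brain.

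Tumour 1 held 830 microglia among 9560 cells (8.68%, exact binomial 95% interval 8.13 to 9.26%). Tumour 2 held 597 among 6964 (8.57%, 7.93 to 9.25%), and tumour 3 only 191 among 5142 (3.71%, 3.21 to 4.27%). The mean over tumours was 6.99 ± 2.84% (SD, n = 3), with tumour 3 below the intervals of the other two. These intervals cover counting error only. After every cell was thinned to 1000 UMIs, so that depth could not set how many rule genes were seen, the shares were 6.94, 6.36 and 3.17%. The microglia held 6758606, 4453586 and 2670486 UMIs in tumours 1, 2 and 3, with medians of 7168, 6910 and 7526 UMIs per cell. Neural-like cells, defined by at least 3 of 10 neural genes, had medians of 9772, 7093 and 20022 UMIs. Endothelial-like and oligodendrocyte-like cells were defined in the same way, each by at least 3 of 6 genes. These classes were limited to cells with UMIs of at most 1 of the 6 myeloid rule genes that fitted only 1 of the classes.

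The edge of the rule was read from cells that met the myeloid condition. Of these, 470 held UMIs of only 1 of the 5 microglia genes and lay just outside, with a median of 1473.5 UMIs per cell. Just inside, 325 cells held 2 of the 5 genes, with a median of 1884 UMIs, whereas the 487 cells with all 5 genes had a median of 10709 UMIs. The number of microglia genes seen in a cell therefore rose with its depth. Between 22 and 42 barcodes were shared by pairs of libraries, and none of them was microglia in both. A doublet caller run at the loading-based rate marked 86, 63 and 8 microglia, which were kept and left out in an alternative.

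The 11 genes of the rule are given as values only, in CPM (UMIs of the gene per 1000000 UMIs of all genes) of the summed microglia of tumours 1, 2 and 3. C1qa, a chain of the complement component C1q, stood at 4990.1, 3958 and 5048 CPM, against 32.1, 50 and 15.2 CPM in all other cells. The other C1q chains, C1qb and C1qc, stood at 4790.3, 4175 and 5039.9 CPM and 3955, 3743 and 3641 CPM, and the Fc receptor gamma chain Fcer1g at 1629.8, 1426 and 2056 CPM. The signalling adaptor Tyrobp stood at 3220.3, 2721 and 2762 CPM and the lysosomal protease Ctss at 4015, 4449 and 3695 CPM. The purinergic receptor P2ry12, by which microglia sense ADP, stood at 340.2, 203 and 248 CPM, against 1.53, 2.44 and 0.564 CPM in other cells. The fractalkine receptor Cx3cr1 stood at 1778, 1467 and 1101 CPM, Fcrls at 1076, 705 and 1114 CPM, Tmem119 at 136, 95 and 196 CPM and the lectin Siglech at 334, 299.5 and 129 CPM. For each of the genes named here every tumour's microglia lay above every tumour's other cells, which the rule itself requires, and tumour 3 had the lowest Siglech.

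Because PU.1 is the factor that defines the lineage, promoters of rule genes were searched for its core sequence GAGGAA on both strands (reverse complement TTCCTC). RefSeq sequences on GRCm38.p6 were used, from 250 bases before to 50 bases after each gene's start. The core was found in 7652 of 27025 promoters (28.3%), in 3 of the 4 promoters available for the 6 myeloid rule genes and in 2 of the 4 available for the 5 microglia rule genes. The starts are those of RefSeq, and for P2ry12, whose promoter held no core, and C1qb, whose promoter held 1, they lie upstream of the gene in GENCODE M21. A longer form, GAGGAAGT, which contains the core, was found in 887 promoters (3.28%), those of Ctss and C1qc among them. The promoters of Ctss (chr3:95526536-95526835, plus strand), C1qc (chr4:136892865-136893164, minus strand) and Cx3cr1 (chr9:120068247-120068546, minus strand) are printed 5′ to 3′ in the direction of transcription, as an example with 2 core matches, 1 with a single match and 1 with none, with the core or its reverse complement in capitals.
Ctss: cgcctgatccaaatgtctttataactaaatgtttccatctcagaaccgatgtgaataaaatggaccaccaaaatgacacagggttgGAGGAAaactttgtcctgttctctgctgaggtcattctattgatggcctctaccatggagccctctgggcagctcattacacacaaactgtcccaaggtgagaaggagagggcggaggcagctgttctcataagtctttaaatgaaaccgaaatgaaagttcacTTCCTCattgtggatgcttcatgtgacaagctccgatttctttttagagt
C1qc: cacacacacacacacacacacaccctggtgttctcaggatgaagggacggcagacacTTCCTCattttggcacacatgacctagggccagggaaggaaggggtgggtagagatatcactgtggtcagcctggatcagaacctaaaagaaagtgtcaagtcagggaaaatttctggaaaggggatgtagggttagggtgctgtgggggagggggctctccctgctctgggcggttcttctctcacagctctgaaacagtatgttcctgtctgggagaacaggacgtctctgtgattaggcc
Cx3cr1: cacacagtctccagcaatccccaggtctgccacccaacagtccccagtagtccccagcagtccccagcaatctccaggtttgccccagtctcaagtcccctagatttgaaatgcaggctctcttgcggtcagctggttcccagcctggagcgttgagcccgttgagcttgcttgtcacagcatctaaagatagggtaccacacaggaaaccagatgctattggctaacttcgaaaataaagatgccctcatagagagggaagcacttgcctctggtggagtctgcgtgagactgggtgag
Among the 15 promoters available for the list of general myeloid genes, 10 held the core, those of Trem2, Itgam and Laptm5 among them, and among the 15 available for the list of microglia identity genes 3 did. The ETS-IRF composite element, bound by PU.1 together with Irf8 and present in 2.79% of all promoters on either strand, was in none of the 8 rule gene promoters available. These matches describe letters in a short window and say nothing of binding.

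**Figure D1:**
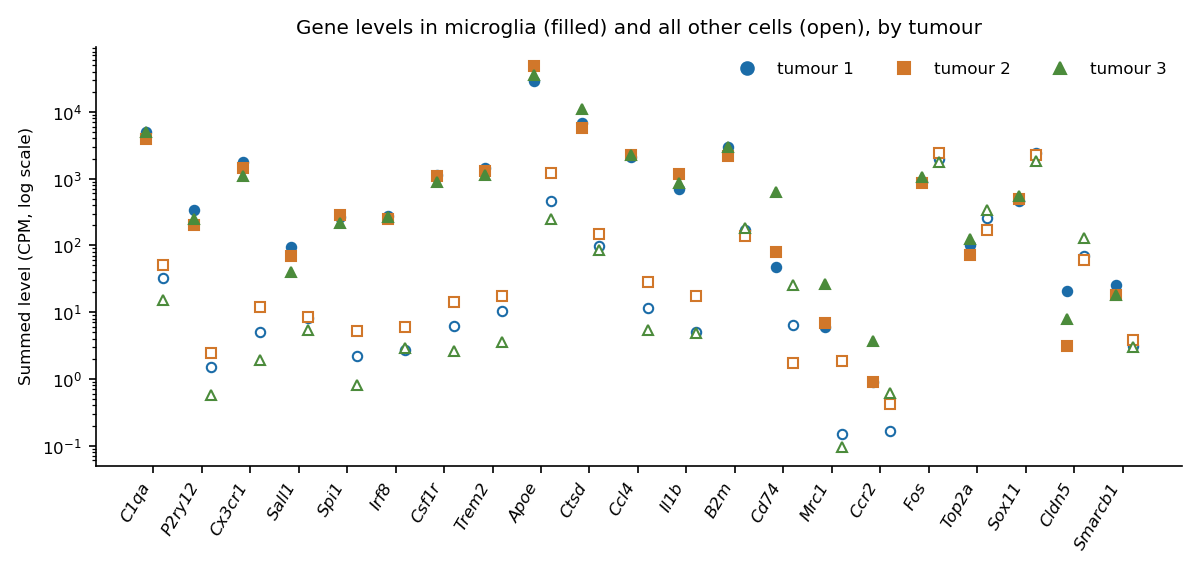
CPM on a log axis for 21 genes in the summed microglia (filled) and in all other cells (open), 1 point per tumour. From C1qa to Ctsd and B2m every microglia point of a gene lies above its points from other cells, while for Fos, Top2a, Sox11 and Cldn5 the microglia points lie lower.

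Microglia were then compared with all other cells of the same tumours, which asks what else sets the class apart. edgeR's quasi-likelihood test on counts summed per tumour and class, with the tumour as a block and Benjamini-Hochberg adjustment over 15450 genes, called 3843 genes higher and 4363 lower, 53.1% of all tested (24.9% higher, 28.2% lower). Without tumour 1 the test called 5175 genes. Against that background, 19 of 19 tested microglia identity genes outside the rule were higher, with a median log2 difference of 5.00 beside -0.20 over all genes tested. Scaling by library totals alone, without TMM factors, moved the median of all genes by -0.50 and the share of higher calls from 46.8% to 24.1%, and log2 differences below are on the TMM scale. Genes expressed in the same cells as the rule genes were bound to differ in this comparison, so the sizes and the exceptions carry more than the counts.

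Gpr34, a receptor for lysophosphatidylserine, was expressed at 431, 222 and 286 CPM in microglia of tumours 1, 2 and 3 and at 3.15, 3.14 and 0.999 CPM in other cells. Its log2 difference was 7.60 (SE 0.40, adjusted p = 2.51e-05), and the ranges of the classes did not overlap. The purinergic receptor P2ry13 was higher by 7.56 on the log2 scale. Olfml3 and Sparc, secreted matrix proteins of microglia that vascular cells also make, differed less, by 3.93 and 2.61. Ltc4s, which makes leukotriene C, stood at 319, 470.0 and 142 CPM, lowest in tumour 3. Sall1 was detected at 96, 68.5 and 40.4 CPM against 8.29, 8.59 and 5.31 CPM, which gave a log2 difference of 3.67 (SE 0.17, adjusted p = 1.61e-05).

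Of 15 tested myeloid transcription factors, 14 were higher in microglia, with a median log2 difference of 5.04, and Bhlhe40 did not pass. Spi1 stood at 268, 282 and 215 CPM against 2.18, 5.13 and 0.821 CPM in other cells, which gave a log2 difference of 7.35 (SE 0.44, adjusted p = 4.07e-05). Irf8 reached 272, 247 and 267 CPM, with a log2 difference of 6.67 (SE 0.30, adjusted p = 1.50e-05). Ikzf1, a lymphoid and myeloid regulator, differed by 6.96, Cebpb by 5.04 and Mef2c, which neurons also use, by 3.81. All 20 general myeloid genes were higher, with a median of 7.37. The integrin Itgam differed by 8.28, Adgre1 (F4/80) by 7.95 and Laptm5 by 7.66, and the lipid-sensing receptor Trem2 stood at 1419.8, 1317 and 1118 CPM (log2 difference 7.70, SE 0.44, adjusted p = 3.56e-05).

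The signals between microglia and the other cells were examined next, since the survival of microglia depends on them. Csf1r was expressed at 1153, 1109 and 887 CPM in microglia against 6.22, 14.4 and 2.59 CPM in other cells, which gave a log2 difference of 7.89 (SE 0.46, adjusted p = 3.86e-05). At 1000 UMIs per cell, 62.7, 63.2 and 51.6% of microglia held a Csf1r UMI, against 0.29, 0.649 and 0.237% of neural-like cells, where it is not expected (unthinned 83.7, 94.3 and 80.6% of microglia and 2.48, 3.71 and 2.8% of neural-like cells at the median depths given above). The microglia shares lay far above the neural-like shares in every tumour. The neural-like class leaves out cells with more than 1 of the 6 myeloid rule genes, which lowers its shares of myeloid genes by construction.

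Of the 2 ligands of Csf1r, microglia expressed Csf1 and almost no Il34, while endothelial-like cells expressed both. Csf1 was expressed by the microglia themselves, at 162, 142 and 115 CPM, with 92.6, 126 and 47.2 CPM in endothelial-like cells, 149 and 106 CPM in the oligodendrocyte-like cells of tumours 1 and 2, and 16.9, 24.7 and 17.4 CPM in neural-like cells, and it was higher in microglia than in all other cells by 3.08 (SE 0.15, adjusted p = 1.88e-05). Il34 was nearly absent from microglia, with 1, 2 and 0 UMIs in all (0.148, 0.449 and 0 CPM), while endothelial-like cells held 20.4, 32.3 and 53.5 CPM. Its log2 difference of -2.99 (SE 0.70, adjusted p = 0.0123) became -2.71 without tumour 1 and did not pass (adjusted p = 0.0905). Cx3cl1, the ligand of Cx3cr1, followed the same order, with 1.18, 0.898 and 0 CPM in microglia, 5.1, 8.21 and 3.61 CPM in neural-like cells and 55.9, 40.4 and 23.6 CPM in endothelial-like cells (log2 difference of microglia from all other cells -2.54, SE 0.53, adjusted p = 0.0076).

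Tgfb1, a cytokine on which adult microglia depend, was expressed by the microglia at 275, 257 and 210.1 CPM and by endothelial-like cells at 162, 86.1 and 214 CPM, with 1.75, 1.94 and 2.32 CPM in neural-like cells. The microglia and endothelial ranges overlapped. Against all other cells Tgfb1 was higher in microglia by 5.29 (SE 0.26, adjusted p = 2.02e-05). Of 16 tested ligands known to act on microglia, 7 were higher in microglia and 8 lower (median -1.11). Ptn, a growth factor, was among those lower, with a log2 difference of -1.69. Of 23 tested receptors, 21 were higher in microglia (median 4.40), Itgb8 was lower and Cxcr4 did not pass. Of 15 tested secreted or surface signals of microglia, 12 were higher, and the matrix protein Spp1 (osteopontin) stood at 295, 309.9 and 532 CPM (log2 difference 6.97, SE 0.54, adjusted p = 1.21e-04). At 1000 UMIs per cell, 11.2, 13.7 and 18.7% of microglia held an Spp1 UMI (unthinned 26.4, 25 and 40.8%), with tumour 3 highest on both scales.

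**Figure D2:**
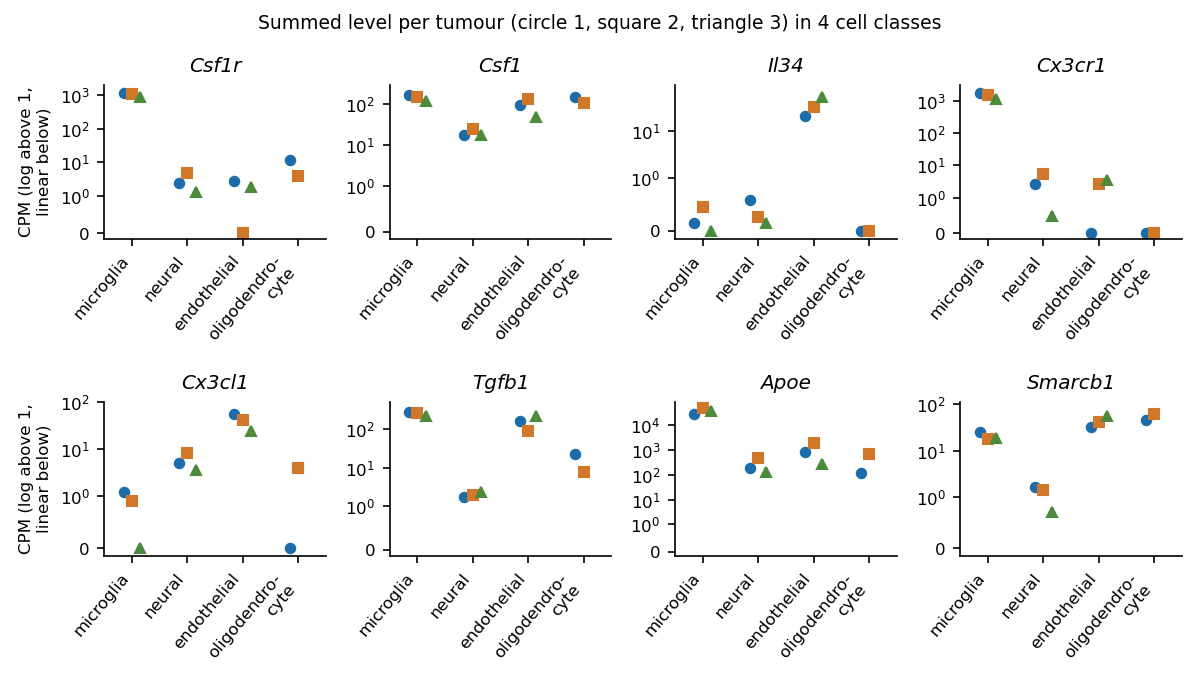
CPM of 8 genes in microglia, neural-like, endothelial-like and oligodendrocyte-like cells, 1 point per tumour, on an axis that is logarithmic above 1 CPM and linear below. The oligodendrocyte-like sum of tumour 3 (2 cells) is not drawn. Csf1r lies highest in microglia, and Il34 and Cx3cl1 lie highest in endothelial-like cells in all 3 tumours.

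The list of genes known from disease-associated microglia, a state described in neurodegeneration and marked by lipid-handling and lysosomal genes, had 20 of 21 tested members higher than in other cells, with a median log2 difference of 4.81. Apoe, the main lipid carrier of the brain, stood out among them with 29162, 48669 and 36211 CPM, 38014 ± 9878 CPM (SD, n = 3), against 455, 1194 and 246 CPM in other cells. Its log2 difference was 6.68 (SE 0.46, adjusted p = 7.17e-05), and tumour 2 was highest in both classes. The protease Ctsd stood at 6929.8, 5734 and 11004 CPM (log2 difference 6.63) and Ctsb differed by 5.50. Cd83 and Itgax were higher by 7.58 and 7.70, Fabp5 did not pass and Clec7a was too low to be tested. Because these genes are compared with cells of other kinds and not with microglia of a normal brain, their level says nothing of a change of state.

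All 21 tested genes of lysosomes and lipid turnover were higher, with a median of 3.83. The protease inhibitor Cst3 stood at 9364, 5476 and 5411 CPM, which gave a log2 difference of 4.58 (SE 0.34, adjusted p = 1.02e-04). The proteases Ctsz and Lgmn differed by 5.95 and 6.33, and Grn (progranulin) by 5.90. Of 18 tested phagocytic receptors and bridging molecules, 16 were higher, with a median of 4.52, among them P2ry6 at 8.05 and Axl, which binds dying cells through Gas6, at 5.50. Megf10, a receptor of astrocytes and neural precursors, was lower and Tyro3 did not pass.

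Cytokine and chemokine genes were expressed strongly. Of 21 tested, 20 were higher in microglia, with a median log2 difference of 6.82, and Ccl7 did not pass. The chemokine Ccl4 stood at 2091, 2261 and 2244 CPM, and its neighbour Ccl3 stood at 525, 628 and 659.8 CPM with a log2 difference of 7.78 (SE 0.52, adjusted p = 6.52e-05). The inflammatory cytokine Il1b stood at 688, 1154 and 869 CPM against 5.09, 17.7 and 4.88 CPM, which gave a log2 difference of 7.35 (SE 0.33, adjusted p = 1.50e-05). Il1a differed by 7.94, and Nlrp3, the sensor of the inflammasome that matures interleukin 1, stood at 513, 578 and 221 CPM, lowest in tumour 3.

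At 1000 UMIs per cell, 25.2, 42.7 and 28.6% of microglia held an Il1b UMI (unthinned 42.3, 68 and 46.6%), against 0.246, 1.07 and 0.189% of neural-like cells (unthinned 1.29, 4.19 and 2.1%). For Ccl4 the thinned microglia shares were 42.4, 49.6 and 41.2% (unthinned 59.4, 73 and 57.6%). UMIs of both genes were found in microglia of tumour 2 more often than in those of the other two. UMIs of at least 2 cytokine genes were found in 59.7, 75 and 52.7% of thinned microglia. Of these cells, 95.3, 94.8 and 91.7% also held UMIs of at least 2 immediate early or stress genes, which were found in 78.5, 87.9 and 73.6% of all thinned microglia.

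Immediate early and stress genes, which cells switch on within minutes of a stimulus, enzymatic dissociation included, were also higher as a list, 17 of 21 with a median of 1.66. Junb was higher by 2.31, Atf3 by 4.57 and Klf2 by 2.86. Fos went the other way, at 890.4, 853 and 1073 CPM in microglia and 1952, 2456 and 1793 CPM in other cells. Its log2 difference of -0.64 (SE 0.17, adjusted p = 0.0195) became -0.64 without tumour 1 and -0.49 without tumour 2, and did not pass in either (adjusted p = 0.143 and 0.086). The part of dissociation in the cytokine levels was not tested.

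Interferon response genes were higher in 19 of 20 cases, with a median of 3.29 and Ifitm3 not passing. Slfn2 differed by 7.01 and Ly6e by 4.14, while Ifi27l2a differed by only 1.44. All 12 tested genes of MHC class I presentation were higher (median 4.26), with its light chain B2m at 2929, 2218 and 2949 CPM (log2 difference 4.53) and the heavy chain H2-D1 at 4.67. MHC class II genes were uneven. Of 9 tested, 7 were higher (median 4.54), with Cd86 at 7.11 and H2-DMa at 5.13. The invariant chain Cd74 stood at 47.2, 79 and 638 CPM (log2 difference 4.76, SE 0.50, adjusted p = 4.51e-04), and H2-Aa and H2-Eb1 did not pass (adjusted p = 0.0602 and 0.0762) in the comparison as run, against 4.26, 0.288 and 11.8 and 3.79, 0.545 and 10.2 CPM in other cells. Both passed without tumour 1 (adjusted p = 5.50e-04 and 0.00219), with no count filter (adjusted p = 0.0194 and 0.0289) and against other cells lacking myeloid genes, where the log2 differences were 7.15 and 5.69 (adjusted p = 5.38e-04 and 0.0133). H2-Aa also passed without called doublets (adjusted p = 0.0381). Without tumour 3 the log2 differences were 0.54 and 0.28 (adjusted p = 0.474 and 0.713).

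In the complement list, which leaves out the C1q chains of the rule, 8 of 14 tested genes were higher and 3 lower, with a median of 3.83. The receptors for the fragments C3a and C5a, C3ar1 and C5ar1, were higher by 7.70 and 7.92. Serping1, C1s1 and Cd93, genes that vascular and stromal cells express, were the lower members.

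The label was checked against markers of other cells that the rule could have let in. The lymphoid markers Cd3e, Cd3d, Cd3g, Trac, Nkg7, Gzma and Ms4a1 had 0 UMIs in the microglia of all 3 tumours. Of the other lymphoid genes Cd79a had 3, 1 and 2 UMIs (log2 difference -0.55 (SE 0.65, adjusted p = 0.499), not past the threshold) and the natural killer receptor Klrb1c 12, 1 and 3 UMIs, and the whole list summed to 2.22, 0.449 and 1.87 CPM in microglia against 1.81, 1.83 and 3.95 CPM in other cells. Of 7 genes of granulocytes and mast cells, S100a8, Retnlg and Cpa3 had 0 UMIs in all 3 tumours, S100a9 had 0, 2 and 1 and Mmp9 0, 7 and 1 UMIs, and the stem cell factor receptor Kit was lower than in other cells (log2 difference -1.59, SE 0.24, adjusted p = 0.00207). The remaining one, Csf3r, the receptor for granulocyte colony-stimulating factor, was higher in microglia, at 68.2, 52.8 and 78.6 CPM against 1.05, 2.15 and 0.693 CPM (log2 difference 6.30, SE 0.40, adjusted p = 5.42e-05). A count of 0 allows a level of up to 0.444, 0.674 and 1.12 CPM in tumours 1, 2 and 3. Of the genes that mark macrophages at the borders of the brain, Cd163 and Cd209f had 0 UMIs and Lyve1 had 1, 0 and 0 UMIs. The mannose receptor Mrc1 stood at only 5.92, 6.96 and 26.2 CPM, although higher than in other cells (log2 difference 5.31, SE 1.14, adjusted p = 0.00874), and Ms4a7 at 62.9, 30.1 and 284 CPM. Of 11 tested border macrophage genes 9 were higher (median 5.31). Of 17 tested genes of monocyte-derived cells, 8 were higher and 4 lower (median 1.29), Vim among the lower ones with a log2 difference of -1.22. Ccr2, the receptor that monocytes use to leave the blood, had only 6, 4 and 10 UMIs in microglia, 0.888, 0.898 and 3.74 CPM. Against 0.163, 0.417 and 0.612 CPM in other cells it was higher in microglia, with a log2 difference of 2.61 (SE 0.55, adjusted p = 0.00792), and without tumour 1 it did not pass at 2.46 (adjusted p = 0.0611).

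Genes of the neural tumour cells, of which 13 of 16 were lower in microglia (median -1.60), were still counted there. Sox11 stood at 458, 495 and 555 CPM in microglia and 2402, 2255 and 1841 CPM in other cells (log2 difference -1.61). The 16 genes summed to 1618, 1685 and 1265 CPM in microglia against 7824, 7399 and 4435 CPM in other cells. Endothelial and mural genes were lower in 8 of 8 and 7 of 7 cases, with log2 differences of -2.51 for Cldn5 and -4.47 for Rgs5. Free RNA in the droplets was not corrected for, and its part in these levels was not tested.

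**Figure D3:**
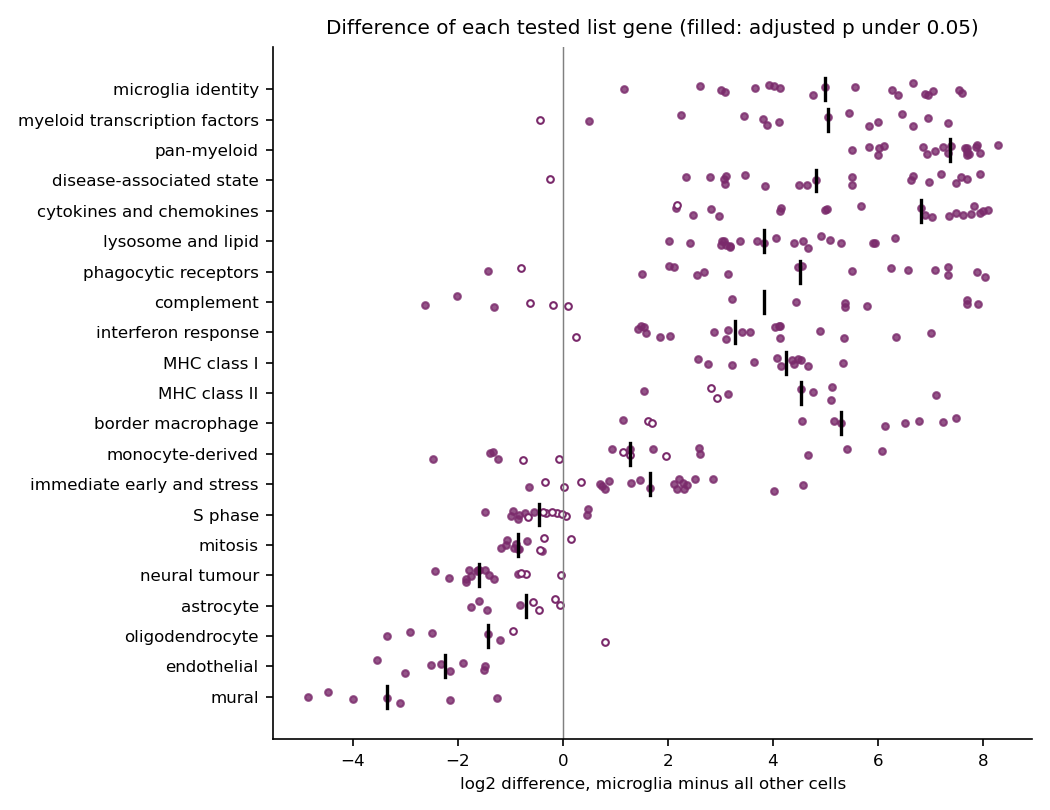
Log2 difference between microglia and all other cells (horizontal axis) for each tested gene of 21 lists. Filled points passed the test, open points did not, and the black bar is the median of the list. The medians run from 7.37 for general myeloid genes to -3.35 for mural genes.

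Smarcb1, the targeted gene (chr10:75896769-75921617, minus strand, GENCODE M21 on mm10), was measured in every class. Microglia held 173, 80 and 49 UMIs in tumours 1, 2 and 3, or 25.6, 18 and 18.3 CPM, against 3.09, 3.81 and 3.04 CPM in all other cells, which gave a log2 difference of 3.14 (SE 0.22, adjusted p = 8.27e-05). Neural-like cells stood at 1.67, 1.4 and 0.71 CPM and endothelial-like cells at 32.7, 40.4 and 56.2 CPM. In all 3 tumours microglia thus lay above neural-like cells and below endothelial-like cells. Reads were taken from the 3′ end of transcripts, and which exons the flox sites flank is not given in the labels, so the level is no direct check of the deletion.

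Microglia of the 3 tumours were compared with each other as a description, with 1 library per tumour and no test. Over 207 measured genes of the myeloid and state lists, the ratio of the highest to the lowest tumour had a median of 1.49, was under 2 for 165 genes and at least 3 for 15. The genes named here for their ratios were chosen after their values were seen. Tumour 3 was highest for H2-Aa, at 2.81, 0.898 and 253 CPM, and for H2-Eb1, at 1.92, 1.12 and 217 CPM. H2-Ab1 stood at 33.4, 42.7 and 285 CPM and the lysozyme gene Lyz2 at 1357, 954 and 4302 CPM. Tumour 3 was lowest for the identity gene Crybb1, at 109, 75.9 and 17.2 CPM, and for the chemokine Ccl12, at 247, 154 and 76.4 CPM. Of the 7 class II genes ranked, 6 were highest in tumour 3, and H2-DMa was nearly level at 147, 121 and 142 CPM. Thus H2-Aa, H2-Eb1, H2-Ab1, Cd74, Ms4a7 and Lyz2 were higher, and Crybb1, Ltc4s, Sall1, Siglech and Nlrp3 lower, in the tumour with the smallest share of microglia. These are sums over all microglia of a tumour, and for H2-Ab1 and Cd74 the order changed when cells with class II genes were left out, as given below.

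The difference in H2-Aa rested on few cells. UMIs of at least 2 of H2-Aa, H2-Ab1 and H2-Eb1 marked 11 of the 830 microglia of tumour 1 (1.33%, exact binomial 95% interval 0.663 to 2.36%). Tumour 2 had 2 such cells among 597 (0.335%, 0.0406 to 1.2%) and tumour 3 had 15 among 191 (7.85%, 4.46 to 12.6%). In tumour 3 these 15 cells held 671 of the 675 H2-Aa UMIs of all microglia. They were deep, with a median of 20413 UMIs against 5874.5 in the remaining microglia of that tumour, and 4 of the 15 held UMIs of at least 3 neural genes. These shares were not thinned, so depth and class II expression cannot be told apart in them. At 1000 UMIs per cell a H2-Aa UMI was found in 0, 0 and 4.95% of microglia (unthinned 0.843, 0.503 and 8.9%). The counts of 0 allow shares of up to 0.382% in tumour 1 and 0.513% in tumour 2 of cells with a UMI at that depth, which is no limit on cells that express the gene.

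In those 15 cells, chosen for their class II genes, H2-Aa stood at 2320.4 CPM, against 1.68 CPM in the rest of the microglia of tumour 3, and Cd74 at 5765 against 16 CPM. They also had higher CPM of Lyz2 (12273 against 3334 CPM), Ms4a7 (965 against 202 CPM) and Ccr2 (27.7 against 0.84 CPM, from 8 and 2 UMIs). They had lower CPM of Sall1 (6.92 against 44.5 CPM, from 2 and 106 UMIs) and Crybb1 (3.46 against 18.9 CPM, from 1 and 45 UMIs). The monocyte and border markers did not move as one: Mrc1 stood at 27.7 against 26 CPM, and the list of monocyte-derived genes summed to 1587 against 1402 CPM. Of the microglia rule genes, Tmem119 stood higher, at 239 against 191 CPM. The others stood lower: P2ry12 at 169 against 257 CPM, Siglech at 72.6 against 136, Fcrls at 961 against 1133 and Cx3cr1 at 1027 against 1109 CPM. Csf1r was at a like level in both parts, with 982 and 875 CPM. Genes of the border macrophage list summed to 1992 CPM in the 15 cells and 670 CPM in the rest. The microglia of tumour 3 without these cells still had more Ms4a7 and Lyz2 than those of the other tumours. Levels there without such cells were 50.7 and 27.5 CPM for Ms4a7 and 1294 and 936 CPM for Lyz2. Cd74 and H2-Ab1 went the other way. Without such cells Cd74 stood at 36.9, 77.1 and 16 CPM in tumours 1, 2 and 3, and H2-Ab1 at 30.3, 41.7 and 19.3 CPM. Leaving out cells for H2-Ab1 lowers that gene by construction in each tumour. The 15 cells met the rule for microglia but carried less of the microglia identity list, at a summed 5644 CPM against 7737 CPM.

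**Figure D4:**
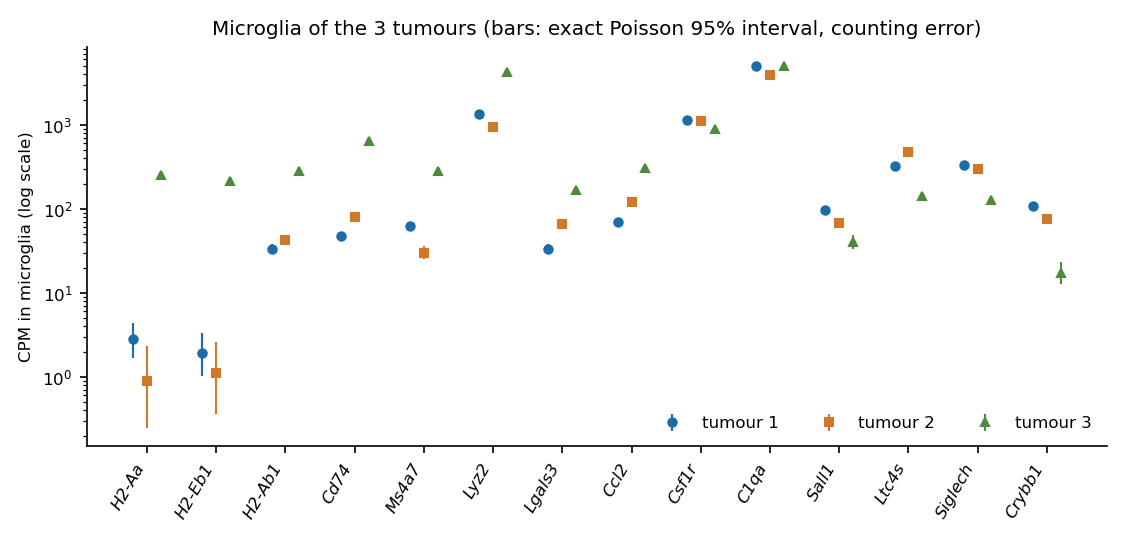
CPM on a log axis of 14 genes in the summed microglia of each tumour, with exact Poisson 95% intervals for counting error. H2-Aa in tumour 3 (253 CPM) lies far above tumours 1 and 2, Crybb1 in tumour 3 (17.2 CPM) lies below them, and Csf1r and C1qa are nearly level.

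The class set against microglia as myeloid cells without microglia genes was made of the 584 cells that held at least 3 of the 6 myeloid rule genes and none of the 5 microglia rule genes. Its markers went against calling it macrophages. The 20 general myeloid genes summed to 1536, 979 and 1255 CPM in its 3 sums, against 12338, 10576 and 14425 CPM in microglia, and the neural list to 6697, 6981 and 3469 CPM, near the level of other cells. Only 102 of its cells held all 6 myeloid genes, 204 held UMIs of at least 3 neural genes, and median depths were 1158, 1614 and 1367.5 UMIs. The comparison is therefore with sums that carried neural transcripts near the level of other cells. The median barcode of the class was shallow, but its upper quartiles of depth were 5475, 4929 and 10582.75 UMIs. Deeper cells therefore weighed more in these sums.

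Against this class 2810 of 14149 tested genes were higher in microglia and 3378 lower, 43.7% in all (19.9% higher, 23.9% lower), and 3885 were called without the tumour block, 3449 without tumour 1 and 3729 without tumour 2. All 18 tested identity genes, all 20 general myeloid genes and all 21 lysosomal genes were higher. Scaling by library totals alone moved the median of all genes by -0.41 and the share of higher calls from 45.4% to 24.3%. Csf1r stood at 68.3, 71.2 and 23.5 CPM there (log2 difference 4.81, SE 0.29, adjusted p = 1.94e-08) and Itgam differed by 5.23. Class II went the other way for H2-Aa and H2-Eb1, with 186, 2.92 and 447 and 158, 3.9 and 454 CPM, log2 differences of -2.15 (SE 0.67, adjusted p = 0.0187) and -2.11 (SE 0.77, adjusted p = 0.0376). These 2 calls did not hold under 7 alternatives for H2-Aa and 8 for H2-Eb1. Without tumour 1 the values were -0.69 and -0.94 (adjusted p = 0.199 and 0.438), without tumour 2 they were -2.15 and -2.10 (adjusted p = 0.0935 and 0.117), without the tumour block -1.06 and -1.23 (adjusted p = 0.646 and 0.556), by DESeq2 -2.35 and -2.62 (adjusted p = 0.0519 and 0.122) and against cells with all 6 myeloid genes -0.64 and -0.35 (adjusted p = 0.78 and 0.923). When the class was limited to cells with all 6 myeloid genes, an alternative chosen after seeing the data, 1128 genes were called, of which 1033 were higher in microglia.

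UMIs of genes of cell division were found in microglia of every tumour. At 1000 UMIs per cell, a UMI of Mki67 or Top2a was found in 6.11, 4.96 and 7.14% of microglia, against 10.4, 8.57 and 15.8% of neural-like and 3.6, 1.41 and 5.38% of endothelial-like cells (unthinned 18, 19.8 and 30.4%, 27.3, 20.1 and 42.6% and 11.7, 7.32 and 13.3%). Endothelial-like cells had median depths of 4963.5, 2415.5 and 2468.5 UMIs. The microglia shares lay below the neural-like shares in each tumour and within the exact binomial intervals of the endothelial-like shares. In CPM, Top2a stood at 100.2, 73 and 125 in microglia and 258, 169 and 338 in all other cells (log2 difference -0.84, SE 0.11, adjusted p = 0.00128), Cenpf differed by -1.17, and Mki67, at 57.4, 51.9 and 99.2 against 74, 59.6 and 135 CPM, did not pass (log2 difference 0.16, SE 0.11, adjusted p = 0.273). The CPM of Mki67 were lower in microglia of each tumour, so the direction of its difference rested on the scaling. Mki67 was lower past the threshold when scaled by library totals alone (log2 difference -0.34, adjusted p = 0.0283). On the TMM scale it was higher past the threshold without tumour 3 (adjusted p = 0.0227). Of the 12 mitosis genes 9 were lower in microglia than in other cells (median -0.85), and of 16 S phase genes 7 were lower and 2 higher.

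Microglia with UMIs of at least 3 of the 12 mitosis genes were set apart, and are called mitotic microglia here for that reason alone, to ask how they differ from the rest. They numbered 70, 32 and 34 in tumours 1, 2 and 3 (8.43, 5.36 and 17.8% of microglia), and tumour 3 had the highest share. These shares were not thinned, so depth and cell division cannot be told apart in them. Mitotic microglia were deeper, with median UMIs of 12308, 9892.5 and 23926.5 against 6867, 6894 and 4871 in other microglia. UMIs of at least 3 neural genes were held by 32.9, 43.8 and 41.2% of them, against 14.6, 14.5 and 15.3% of other microglia. The doublet caller marked 18, 8 and 5 of them (25.7, 25 and 14.7%), against 8.95, 9.73 and 1.91% of other microglia. The part of depth and of neural RNA in the differences below was not tested other than by leaving such cells out.

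Of 12215 genes tested, 878 were higher and 800 lower in mitotic microglia, 13.7% in all (7.19% higher, 6.55% lower), and without the tumour block 349 were higher and 125 lower. Without tumour 1 the calls were 234 higher and 45 lower, and without tumour 2 they were 307 higher and 281 lower. Scaling by library totals alone moved the median of all genes by 0.32 and the share of higher calls from 52.3% to 93.1%, so that the balance of directions rested on the scaling. The cells were picked for UMIs of mitosis genes, so other cell cycle genes expressed in the same cells were bound to be higher. The rise of S phase and spindle genes given next is therefore no independent sign of cell division. All 16 S phase genes were higher, with a median of 2.01 beside -0.05 over all genes. The replication factor Pclaf rose by 4.43, from 7.98, 3.72 and 8.07 to 253, 142 and 125 CPM, Rrm2, which makes deoxynucleotides, by 3.23, and Uhrf1, which maintains DNA methylation, by 2.64. The spindle genes Hmmr, Cenpe and Prc1 rose by 5.20, 4.97 and 4.64. S phase genes were higher in 15 of 16 cases both without cells holding neural genes and without called doublets. Both alternatives kept the selection by mitosis genes, so they do not test its part in this rise.

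Members of several microglia lists were lower in mitotic cells. Lysosomal and lipid genes were lower in 17 of 21 cases (median -0.81), interferon response genes in 9 of 20 (median -0.93) and identity genes in 8 of 19 (median -0.82). Without tumour 1 the counts of lower genes were 3 of 21, 1 of 20 and 0 of 18, beside 45 of all 12826 tested. Without the tumour block they were 4 of 21, 4 of 20 and 0 of 19, beside 125 of all 12215. Apoe stood at 18825, 22498 and 21826 CPM in mitotic microglia and 30946, 51369 and 43975 CPM in the rest, which gave a log2 difference of -1.27 (SE 0.40, adjusted p = 0.0433). The ceramidase Asah1 differed by -1.06 (SE 0.13, adjusted p = 4.50e-05) and the interferon-induced Ifit1 by -3.08 (SE 0.67, adjusted p = 0.00708). Irf8 differed by -0.96 (SE 0.28, adjusted p = 0.0304). By DESeq2 Irf8 did not pass (adjusted p = 0.0559), and without the tumour block neither Irf8 nor Apoe passed (adjusted p = 0.106 and 0.283). Csf1r, at -0.83, did not pass (adjusted p = 0.0741), although it was lower past the threshold in 6 of the 14 alternatives (adjusted p from 8.55e-04 to 0.0474), and its log2 difference lay between -1.05 and -0.52 over all of them. Neural genes were higher in 3 of 16 cases, Sox11 by 0.82, Fabp7 by 0.68 and Sox2 by 1.04, and the list summed to 2861, 3296 and 1724 CPM against 1404, 1519 and 1017 CPM.

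Fewer genes were called lower when cells holding neural genes or called doublets were left out, which also left fewer mitotic cells. Without microglia holding at least 3 neural genes, an alternative chosen after seeing the data, 613 genes were called, 344 of 12242 tested being lower. Identity genes were lower in 0 of 19 cases, lysosomal genes in 5 of 21 and interferon genes in 6 of 20. Without called doublets 633 genes were called, 300 of 12098 tested being lower. In the same lists 1 of 19, 4 of 21 and 4 of 20 were lower. Apoe then stood at log2 differences of -0.95 and -0.99 and no longer passed (adjusted p = 0.201 and 0.168), and Irf8 stood at -0.66 and -0.80 and no longer passed (adjusted p = 0.201 and 0.141). Their direction and most of their size remained, while Ifit1 passed in both settings at -3.50 and -3.21 (adjusted p = 0.0334 and 0.0328). With only 2 tumours, tumour 1 left out, Apoe, Irf8 and Ifit1 had differences of -1.38, -1.14 and -3.21, as large as with 3, and did not pass (adjusted p = 0.193, 0.159 and 0.0758). The neural genes Sox11, Fabp7 and Sox2 did not pass without tumour 1 either, at 0.77, 0.78 and 0.99 (adjusted p = 0.271, 0.156 and 0.0518), nor without tumour 2, at 0.72, 0.39 and 0.88 (adjusted p = 0.0732, 0.175 and 0.0562). Apoe did not pass without tumour 2 at -1.30 (adjusted p = 0.0788). Without cells holding neural genes Sox11, Fabp7 and Sox2 stood at 0.21, -0.12 and 0.49, and without called doublets at 0.52, 0.19 and 0.59, none of which passed. The first of these settings removes cells for holding UMIs of neural genes, Sox11 and Sox2 among them, so it lowers those genes by its construction. With library totals alone Apoe and Irf8 stood at -0.96 and -0.65 and did not pass (adjusted p = 0.1 and 0.11).

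**Figure D5:**
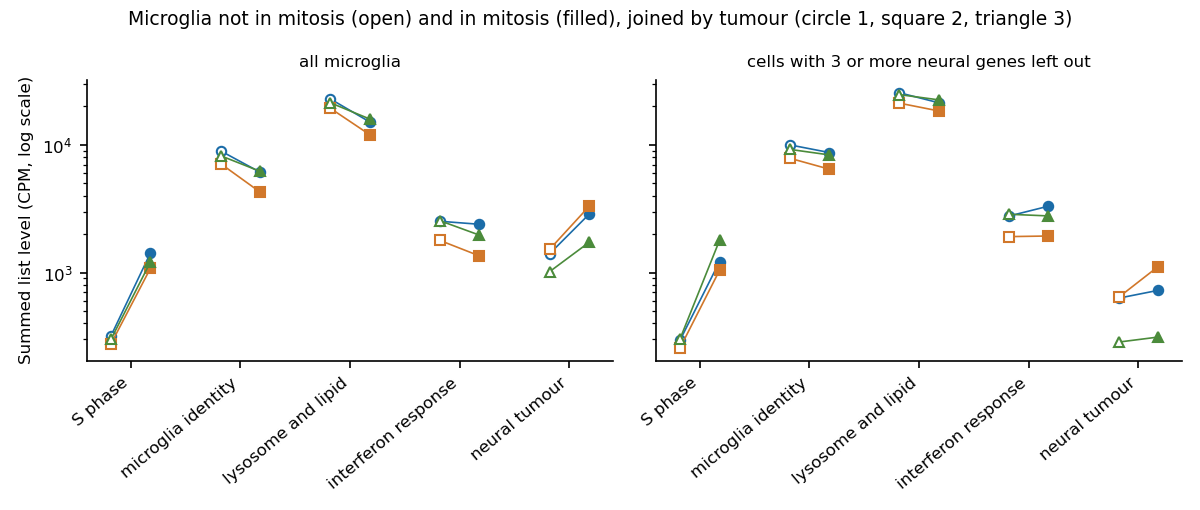
Summed CPM on a log axis of 5 gene lists in microglia outside mitosis (open) and in mitosis (filled), joined by tumour, in all microglia (left) and without cells holding at least 3 neural genes (right). S phase genes lie higher in mitotic cells of every tumour in both panels, and the drop of the identity and lysosomal lists is smaller on the right.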

How the data were processed

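The authors deposited, for each of 3 tumours, a matrix of UMI counts per gene and cell barcode (31053 genes; 12467, 9485 and 6428 barcodes), made, per the labels, with Cell Ranger 3.1.0 on mm10 from 10x Genomics 3′ libraries. The counts are not normalized, and every barcode held at least 500 UMIs. Barcodes with over 15% mitochondrial UMIs were left out, which kept 9560, 6964 and 5142 cells. Microglia were then taken by the gene rule, with no clustering. The members and the gene lists were chosen with earlier results of these data known.

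UMIs were summed per tumour and class, since cells are not replicates, and the sums were tested with edgeR 4.0.16 (R 4.3.3; quasi-likelihood test, TMM, filterByExpr, Benjamini-Hochberg, threshold 0.05). The tumour was a block because both sums of a pair come from the same animal. Each tumour came from its own mouse. The rule genes, and in the mitosis comparison the 12 mitosis genes, were given no test. The oligodendrocyte-like sum of tumour 3 (2 cells) was left out of the joint fits, which held microglia, endothelial-like, neural-like, oligodendrocyte-like, myeloid-rule and other cells in 1 model. Levels are CPM of the summed counts (positions from GENCODE M21, in which 30934 of 31053 genes matched) and are not corrected for length. They compare 1 gene between classes. At these depths 1 UMI in microglia equals 0.148, 0.225 and 0.374 CPM.

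Shares of cells were thinned to 1000 UMIs per cell, leaving out 45, 12 and 9 shallower microglia (785, 585 and 182 kept), and were given exact binomial intervals at 95%. Scrublet in scanpy 1.11.5 was run at a fixed rate of 0.8% per 1000 cells, because its automatic threshold marked 0, 0 and 1 cells. Alternatives were other normalizations, DESeq2 1.42.0, no count filter, no tumour block, leaving out each tumour, other limits and gene rules, thinned cells and doublets removed. Scaling by library totals alone, microglia without neural genes and the class with all 6 myeloid genes were alternatives added after seeing the data. The fits were tested on simulated data in which 100 genes were changed 2-fold and 100 genes 4-fold. In the 3 comparisons, in the order given above, 30, 32 and 13% of the 2-fold changes were recovered. Of the 4-fold changes 85, 86 and 79% were recovered. The spread of the simulated counts was set and not estimated from these tumours.

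Genes named are Smarcb1, Sall1, Spi1, Irf8, Csf1r, Trem2, Apoe, Mrc1, Ccr2, Cd74, Lyz2, Mki67, Top2a, Il1b, Fos, Csf1, Il34, Cx3cl1 and Tgfb1, the rule genes, up to 3 members of each list with the highest level and up to 3 with the largest change, and the genes with the largest changes of all. Others are said to be chosen after their values were seen, or are named as exceptions of a list. Reads of genes with exons overlapping on the same strand may be split between them, as for Ctsd and Itgam. Some genes that the rule for named genes covers are not reported here.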

Additional observations from a re-analysis of the deposited data

Results flagged for a closer look

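Barcodes left out for a mitochondrial share over 15% were not part of any comparison, and a search of them found microglia rule genes. Of 6714 such barcodes, 102 (1.52%) met the gene conditions of the microglia rule: 45 of 2907 in tumour 1 (1.55%), 44 of 2521 in tumour 2 (1.75%) and 13 of 1286 in tumour 3 (1.01%). Their median depths were 2183, 1678 and 3756 UMIs. The shares lie below the 8.68, 8.57 and 3.71% among cells within the limit, at lower depth, and tumour 3 again had the lowest share.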

How the results depend on the processing

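The comparison of microglia with all other cells called 8206 genes, between 7561 (DESeq2) and 10630 (library totals alone) when only the normalization or tool changed, 5548 with no replicate block, 4902 with every cell thinned to 1000 UMIs, and from 5175 to 8540 when 1 tumour was left out. The comparison with cells lacking microglia genes called 6188 genes, 3885 with no replicate block, 933 after thinning, 1128 against cells with all 6 myeloid genes, and from 3449 to 6033 without 1 tumour. The mitosis comparison called 1678 genes, 474 with no replicate block, 613 without cells holding neural genes, 633 without doublets and from 279 to 1796 without 1 tumour. After thinning to 1000 UMIs it could not be fitted. Fabp7 turned to -0.12 in the mitosis comparison without cells holding neural genes, a setting that lowers neural RNA by its construction. The mean share of microglia lay between 5.49% (thinned) and 8.48% (cells of at least 1000 UMIs), and from 6.14 to 8.63% without 1 tumour. Of the named genes, 64 of 73, 10 of 16 and 10 of 31 in the 3 comparisons kept their side of the threshold in every setting that tested them. Those that passed in the comparison as run also kept their direction. A change of direction below the threshold was not counted for the others. The block pairs sums of the same animal, so the values without it say how much the pairing adds. Depth limits what can be said of low genes such as Il34 and Ccr2, which had 10 or fewer UMIs in the microglia of each tumour, and n = 3 tumours of 1 genotype allows no statement about what the genotype does to microglia.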

Other observations

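Sensors of microbial and damage signals were described as receptors only in total above. Tlr2 and Tlr7, receptors for bacterial lipoproteins and for single-stranded RNA, stood at 269, 397 and 339 and 71.9, 103 and 73.4 CPM in the microglia of tumours 1, 2 and 3, and were higher than in other cells by 7.83 and 7.60 on the log2 scale by edgeR's quasi-likelihood test. Mpeg1, which forms pores in the phagosome, and Olr1, a scavenger receptor for oxidized lipoproteins, were higher by 7.95 and 8.05. Ccl2, a chemokine that attracts monocytes, stood at 70.3, 122 and 307 CPM and was highest in tumour 3 (log2 difference from other cells 2.97).

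Interferon and cytokine genes were found in overlapping sets of microglia. At 1000 UMIs per cell, 52.5, 40.9 and 48.9% of microglia held UMIs of at least 2 interferon response genes, and of those cells 66, 81.2 and 52.8% also held UMIs of at least 2 cytokine genes, near the 59.7, 75 and 52.7% of all thinned microglia that did. Cells with at least 2 genes of the whole class II list made up 4.46, 6.67 and 12.6%. That list also holds Cd74, Cd86 and H2-DMa, and is wider than the H2-Aa, H2-Ab1 and H2-Eb1 used above. These shares describe the cells and were not tested.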
